A study of Caenorhabditis elegans with 12 samples.

Results

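Slow feeding was modelled in Caenorhabditis elegans with the mutation eat-2(ad1116), and transcript levels in 3 libraries of the mutant were compared with those in 3 wild-type libraries, 6 of the 12 libraries of the series. The members were chosen by genotype alone, and all 16259 genes with enough counts were compared. The wild type was strain N2 and the mutant was strain IJ173, the strain that the labels give for this allele. A second pair of groups, used here for comparison, was dis-3(L75Q) (strain VC40130) and the double mutant eat-2(ad1116); dis-3(L75Q) (strain IJ2290), again with 3 libraries each. The L75Q change lies in DIS-3, a ribonuclease of the RNA exosome. All groups were whole hermaphrodites taken as adults before they became fertile, grown at 20 °C on the Escherichia coli strain OP50 with no treatment, and the labels give 3 independent harvests. Each genotype was represented by 1 strain, so that the eat-2 allele and any other variant of its strain cannot be told apart.

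EAT-2 is a nicotinic acetylcholine receptor subunit of the pharynx, the muscular pump with which the worm takes up bacteria. Mutants of eat-2 pump slowly, take in less food and live longer, and are widely used to study restricted diet. In worms that lack food, lysosomal lipases release stored fat, and transcription factors such as DAF-16 (FOXO), PHA-4 (FOXA) and HLH-30 (TFEB) are known to change the expression of stress, defence and fat-handling genes.

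The 6 libraries held between 31883792 and 32773817 counts. Levels below are counts scaled to library size (CPM) with a correction for composition, and group values are the mean ± SD of 3 libraries. Differences were tested with edgeR's quasi-likelihood test across all genes, and a gene is said to have risen or fallen where its Benjamini-Hochberg adjusted p was under 0.05. Log2 fold changes are given ± SE.

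The libraries also differed in developmental stage, which has to be read beside every result. A stage score was computed by subtracting the mean log2 CPM of oocyte and eggshell genes from that of molting genes. It was -2.52, 0.20 and -3.29 in wild type replicates 1, 2 and 3. In eat-2(ad1116) it was -1.25, 1.80 and 1.79. The groups overlapped, because wild type replicate 2 scored above eat-2(ad1116) replicate 1, and the mean was 2.65 higher in the mutant (-1.87 ± 1.84 against 0.78 ± 1.76, n = 3, exact two-sided permutation p = 0.2, where 0.1 is the smallest value possible). The score was added to the model as an alternative. The double mutant and dis-3(L75Q) were closer in mean stage score (0.60 ± 0.30 and 0.78 ± 1.49). They were not matched library by library, since dis-3(L75Q) scored 1.83, 1.43 and -0.93. Their difference gives the eat-2(ad1116) effect in 6 other libraries, although the estimate of the spread is common to both comparisons.

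The transcript of eat-2 itself (chromosome II, 14166878 to 14171658) was close to the limit of detection in whole animals. It stood at 0.761, 0.506 and 0.609 CPM in wild type and at 0.164, 0.407 and 0.747 CPM in eat-2(ad1116). The highest mutant library lay within the wild-type range, and the difference did not pass the test (log2 -0.52 ± 0.46, adjusted p = 0.46, edgeR). A transcript level this low does not check the label, and the deposited tables hold no sequence in which the allele could be read.

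Of the 16259 genes tested, 1009 (6.21%) differed between eat-2(ad1116) and wild type. The spread behind these calls was estimated over all 12 libraries. A fit to the 6 compared libraries alone called 84 genes, 61 higher and 23 lower. In the mutant 664 (4.08%) were higher and 345 (2.12%) were lower. The rises were larger than the falls: the median size of a called change was 2.37-fold for rises and 1.62-fold for falls, and 448 rises but 122 falls reached 2-fold. The groups did not overlap at 998 of the 1009 called genes, while over all genes they were apart without overlap at 12.1% in the upward and 9.52% in the downward direction. Called genes were mostly protein-coding (971 of 1009), and so were the genes tested that were not called, of which 14493 were protein-coding. Scaling to library totals alone, which moved the median log2 fold change of all genes from -0.01 to 0.08, called 1482 rises and 232 falls, so that 86.5% of calls were rises in place of 65.8%.

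The number of calls depended on single libraries. Without wild type replicate 1 there were 224 rises (1.36%) and 92 falls (0.559%), and without replicate 3 there were 270 (1.64%) and 126 (0.766%). Without eat-2(ad1116) replicate 2 there were 193 (1.17%) and 108 (0.657%), and without replicate 3 there were 186 (1.13%), with 0.681% of genes lower. The counts went up without the libraries that lay apart in stage, to 1742 rises (10.6%) and 718 falls (4.36%) without wild type replicate 2, and to 3073 (18.7%) and 3088 (18.8%) without eat-2(ad1116) replicate 1. Without both they came to 4085 (24.9%) and 3928 (23.9%), where the libraries left scored -2.52 and -3.29 in wild type and 1.80 and 1.79 in the mutant. Adding the stage score to the model gave 312 rises (1.92%) and 537 falls (3.3%), and 257 of the 664 rises and 211 of the 345 falls were called in the same direction. Counts of the gene lists in each of these fits are to be read beside these shares of all genes.

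A set of 80 gene entries held their call and direction in each of 15 alternative analyses, which included the stage covariate, 2 other tests, the replicate block and the omission of each library in turn. Of these, 58 were higher in eat-2(ad1116) with a median change of 7.29-fold and 22 were lower with a median of 3.08-fold. Of the genes named below, those that rose in this set were tts-1, lipl-1, lipl-2, lipl-3, adh-1, dod-3, mtl-1, lys-7, nnt-1, clec-60, clec-61, clec-82, ilys-2, ilys-3, lys-10, abf-4, spp-2, thn-2, cyp-13A5, cyp-37B1, math-45, scb-1, scl-2, C50F7.5, F17B5.1 and Y8A9A.2. Those that fell in it were agl-1, clec-47, clec-209, gst-4, gst-10, ugt-30, ugt-41, ugt-64, col-68, dhs-26, C30G12.2 and T22B7.7. Of the genes described below as risen or fallen, the following did not pass the test in the fit with the stage covariate: fat-3, ech-9, gcsh-1, pha-4, sqst-1, epg-9, dod-6, ugt-18, nucl-1, rpl-11.1, ace-1, ace-2, ace-3, unc-17, lgc-50, unc-10, unc-31, sng-1, ida-1, flp-22, phat-8, ins-7, ins-11, daf-2, daf-7, sma-10, col-41, col-142, srw-85 and C09B8.4.

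**Figure D1:**
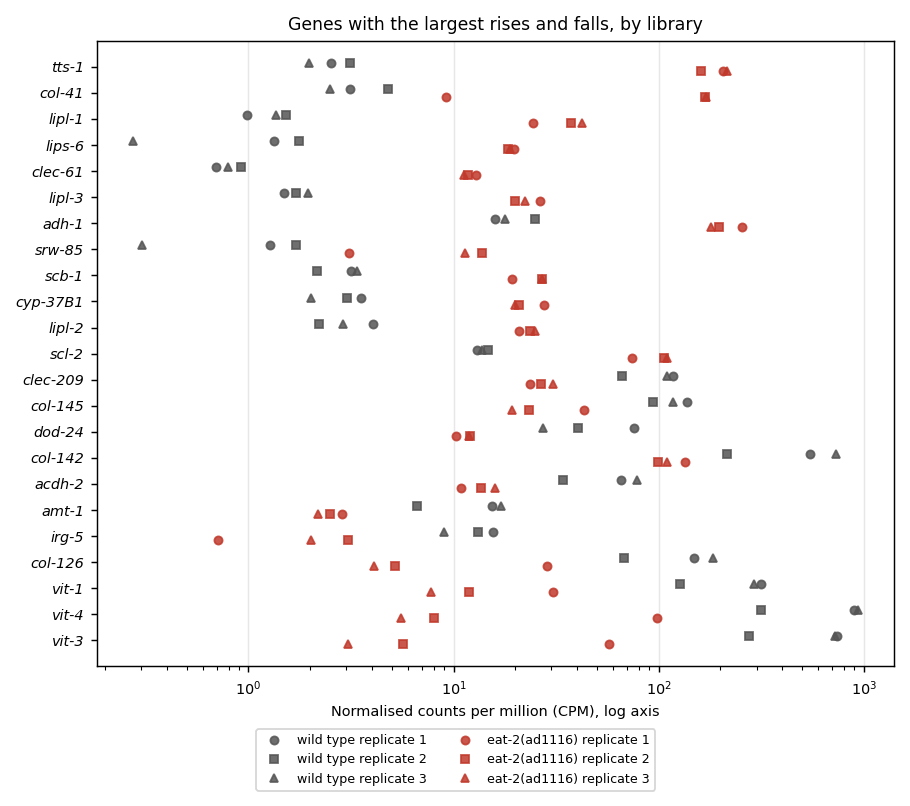
CPM, on a log axis, of the 12 largest rises and the largest falls. Shown are called genes that have a class name, reach 5 CPM on average and keep the groups apart. Each point is 1 library, grey for wild type and red for eat-2(ad1116), with the symbol giving the replicate; clec-209 stands for 2 entries with identical counts. The mutant libraries of tts-1, at 160 to 215 CPM, lie farthest from the wild-type libraries, at 1.98 to 3.13 CPM, while the yolk genes vit-1, vit-3 and vit-4 spread widely within the mutant.

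Lysosomal lipases that are known to be induced by fasting were among the strongest rises. The lysosomal lipase gene lipl-1 (chromosome V, 12919986 to 12921692) was at 0.983, 1.52 and 1.37 CPM in wild type and at 24.4, 37.4 and 42.2 CPM in eat-2(ad1116). All mutant libraries lay far above all wild-type libraries, and the mean rose 26.8-fold (log2 4.74 ± 0.28, adjusted p = 1.4e-05, edgeR). Its relative lipl-3 (chromosome V, 521595 to 524218), which acts with lipl-1 in the breakdown of lipid droplets, rose 13.3-fold, from 1.49, 1.71 and 1.95 CPM to 26.3, 20.0 and 22.2 CPM. Another member, lipl-2 (chromosome V, 9791567 to 9793241), rose 7.59-fold, from 4.03, 2.22 and 2.89 CPM to 20.8, 23.6 and 25 CPM. The groups were apart at both genes, and lipl-1, lipl-2 and lipl-3 all belong to the 80 entries. Their sequences are related, so that counting may have moved some reads between them.

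The other 4 measured lipl genes did not pass the test. Of these lipl-5 was at 378 ± 10.5 CPM in wild type and 483 ± 57.8 CPM in the mutant (log2 0.35 ± 0.10, adjusted p = 0.063, edgeR). Values for lipl-4, lipl-6 and lipl-7 were log2 0.72, 1.99 and 0.11, with adjusted p-values of 0.15, 0.17 and 0.67. The lipase gene fil-1, named for its induction by fasting, rose 2.84-fold to 3.12 ± 0.456 CPM. Expression of lbp-8, which encodes a fatty acid binding protein that carries lipid signals from the lysosome to the nucleus, fell 2.61-fold, from 1.62 ± 0.176 to 0.62 ± 0.0904 CPM. Together 4 of the 14 measured genes of fasting lipases and lipolysis rose and 1 fell, with a median log2 fold change of 0.56 over the list against -0.01 over all genes. The list held 4 rises and 1 fall also with the stage covariate, 8 rises and 2 falls without eat-2(ad1116) replicate 1, and 3 rises and 0 falls without wild type replicate 3 or eat-2(ad1116) replicate 3.

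Outside this list, the lipase gene lips-6 (chromosome IV, 12014130 to 12015686) rose 16.9-fold, from 1.33, 1.77 and 0.274 CPM to 19.8, 18.4 and 18.9 CPM. The alcohol dehydrogenase gene adh-1 (chromosome V, 11888248 to 11889650) rose 10.7-fold, from 16, 25 and 17.9 CPM to 254, 196 and 180 CPM (log2 3.42 ± 0.26, adjusted p = 6.5e-05, edgeR). The groups were far apart at both genes, and the rule that named them took only genes whose groups did not overlap.

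Among genes of fatty acid synthesis and desaturation 2 of 29 rose (6.9%) and 1 fell (3.45%), against 4.08% and 2.12% of all genes. The genes fat-2 and fat-3, whose enzymes act in the synthesis of polyunsaturated fatty acids, rose 1.62-fold and 1.77-fold, to 984 ± 107 and 280 ± 74.9 CPM. The stearoyl-CoA desaturase gene fat-7, which makes monounsaturated fatty acids and shares reads with fat-6, fell 1.65-fold, from 134 ± 10.4 to 81.1 ± 5.25 CPM. Among 37 genes of beta-oxidation and fatty acid import, ech-9 rose and acs-1 and acdh-13 fell, and the median of that list was -0.03. With the stage covariate the synthesis list had 1 rise and 7 falls and the beta-oxidation list 1 rise and 8 falls. They had 12 rises and 3 falls, and 6 rises and 4 falls, without eat-2(ad1116) replicate 1. The synthesis list had 1 rise and 0 falls without wild type replicate 1 or 3 or eat-2(ad1116) replicate 2 or 3, while beta-oxidation had 4 rises without wild type replicate 2 and 0 rises without each of the other 4 libraries. The fatty acid and retinol binding protein gene far-2 had the highest mean CPM of the genes that fell, on a scale that is not corrected for length, from 1620 ± 68.3 to 1200 ± 108 CPM, which is 1.35-fold.

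In the list of the glyoxylate cycle, gluconeogenesis and trehalose, 1 of 24 genes rose and 1 fell (4.17% each), against 4.08% and 2.12% of all genes. The rise was that of aagr-1, and tre-2 fell 1.66-fold, from 88 ± 7.9 to 53.1 ± 5.79 CPM. The list had 1 rise and 6 falls with the stage covariate, and 6 rises and 2 falls without eat-2(ad1116) replicate 1. Glycogen debranching enzyme, encoded by agl-1 (chromosome II, 14350713 to 14358113), was at 137, 123 and 133 CPM in wild type and at 42.7, 40.8 and 38.6 CPM in eat-2(ad1116). The libraries of each group lay close together and far from the other group, and the mean fell 3.21-fold (log2 -1.68 ± 0.09, adjusted p = 8.9e-06, edgeR). The gene agl-1 was chosen after its values were seen. The gene aagr-1, which encodes an acid alpha-glucosidase, another enzyme that acts on glycogen, rose 1.62-fold to 260 ± 28 CPM. No gene of 20 in glycolysis passed edgeR's test, where 3 had an unadjusted p under 0.05, and DESeq2 and limma-voom called 0 of them as well.

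Every called gene of one-carbon and vitamin B12 metabolism fell. In the list of methionine and one-carbon metabolism, 3 of 22 genes fell (13.6%) and 0 rose, against 2.12% and 4.08% of all genes. They were cth-2 (cystathionine gamma-lyase, 1.66-fold), folt-2 (related to folate transporters, 1.89-fold, from 641 ± 98.9 to 339 ± 46.8 CPM) and gcsh-1 (the H protein of the glycine cleavage system, 1.57-fold). The acyl-CoA dehydrogenase gene acdh-2 (chromosome II, 5544778 to 5547492) stood at 65.7, 34.1 and 78.6 CPM in wild type and at 10.9, 13.6 and 15.9 CPM in the mutant. Its groups did not overlap, wild type replicate 2 was the lowest of its group, and the mean fell 4.41-fold (adjusted p = 0.0054, edgeR). Of 19 genes of the propionate and vitamin B12 list, acdh-2 and hach-1, which encodes a hydrolase of valine breakdown, fell (10.5%) and 0 rose. DESeq2 called 3 of that list higher and 2 lower, and without eat-2(ad1116) replicate 1 there were 5 rises and 2 falls. It had 1 fall without wild type replicate 1 or 3 or eat-2(ad1116) replicate 2 or 3, and 1 rise and 2 falls without wild type replicate 2. With the stage covariate the one-carbon list had 6 falls and the vitamin B12 list 3.

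Genes known as targets of DAF-16, the FOXO factor downstream of insulin signalling, contained the largest rise among named genes of at least 5 CPM. It was that of tts-1 (chromosome X, 1504131 to 1504841), a long noncoding RNA that is known to bind ribosomes in other long-lived worms. Its level was 2.54, 3.13 and 1.98 CPM in wild type and 206, 160 and 215 CPM in eat-2(ad1116), a rise of 75.9-fold (log2 6.25 ± 0.22, adjusted p = 3e-07, edgeR). With the stage covariate the log2 fold change was 6.19.

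Of the 37 measured DAF-16 targets, 10 rose (27%) and 1 fell (2.7%), against 4.08% and 2.12% of all genes, with a median log2 fold change of 0.28. Beside tts-1, the lysozyme gene lys-7 (chromosome V, 3481432 to 3482600) rose 4.18-fold, from 48.4, 57.9 and 47.2 CPM to 222, 209 and 211 CPM. dod-3, a gene named for its control downstream of DAF-16, rose by 4.03 on the log2 scale to 4.5 ± 1.23 CPM, and the metallothionein gene mtl-1 rose 7.97-fold to 1.11 ± 0.157 CPM. Also higher were nnt-1 (a mitochondrial transhydrogenase, 2.39-fold), asah-1 (acid ceramidase, 2.22-fold) and lea-1 (related to proteins that protect plants and animals from drying, 1.61-fold, 380 ± 66.5 CPM). The gene that fell was sod-3, the mitochondrial superoxide dismutase often used as a DAF-16 reporter, from 3.53 ± 0.814 to 1.37 ± 0.103 CPM (2.57-fold, adjusted p = 0.0051, edgeR). The stage covariate left 7 rises and 1 fall, with a median of -0.08. Without wild type replicate 1 there were 6 rises, and without eat-2(ad1116) replicate 1 there were 16 rises and 2 falls.

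Of 48 regulators of the response to restricted diet 3 rose and 0 fell, a share called close to the 6.21% of all genes. There were 13 rises and 2 falls without eat-2(ad1116) replicate 1, and 2 rises with the stage covariate. They were pqm-1, a zinc finger factor that opposes DAF-16 (2.33-fold, 11.7 ± 1.80 to 27.2 ± 5.87 CPM), pha-4, the FOXA factor required for the long life of eat-2 mutants (1.90-fold, to 8.21 ± 1.93 CPM), and the flavin monooxygenase gene fmo-2. The level of fmo-2, which extends life when raised, was 0.412, 0.443 and 0.213 CPM in wild type and 3.06, 1.60 and 1.52 CPM in the mutant (5.76-fold, adjusted p = 0.0067, edgeR). The other fmo genes did not pass the test: fmo-1 had a log2 fold change of 0.75 (adjusted p = 0.066), and fmo-3, fmo-4 and fmo-5 had values of -0.28, -0.31 and 0.15. Among 28 genes of the autophagy machinery, sqst-1 (the autophagy receptor p62, 1.58-fold) and epg-9 (2.16-fold) rose and 0 fell. The share called, 7.14%, was close to the 6.21% of all genes. The rises numbered 3 with the stage covariate, 9 without eat-2(ad1116) replicate 1, 1 without wild type replicate 1 or 3, and 0 without eat-2(ad1116) replicate 2 or 3. None of 20 vacuolar ATPase genes passed edgeR's test or had an unadjusted p under 0.05, and DESeq2 and limma-voom called 0.

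**Figure D2:**
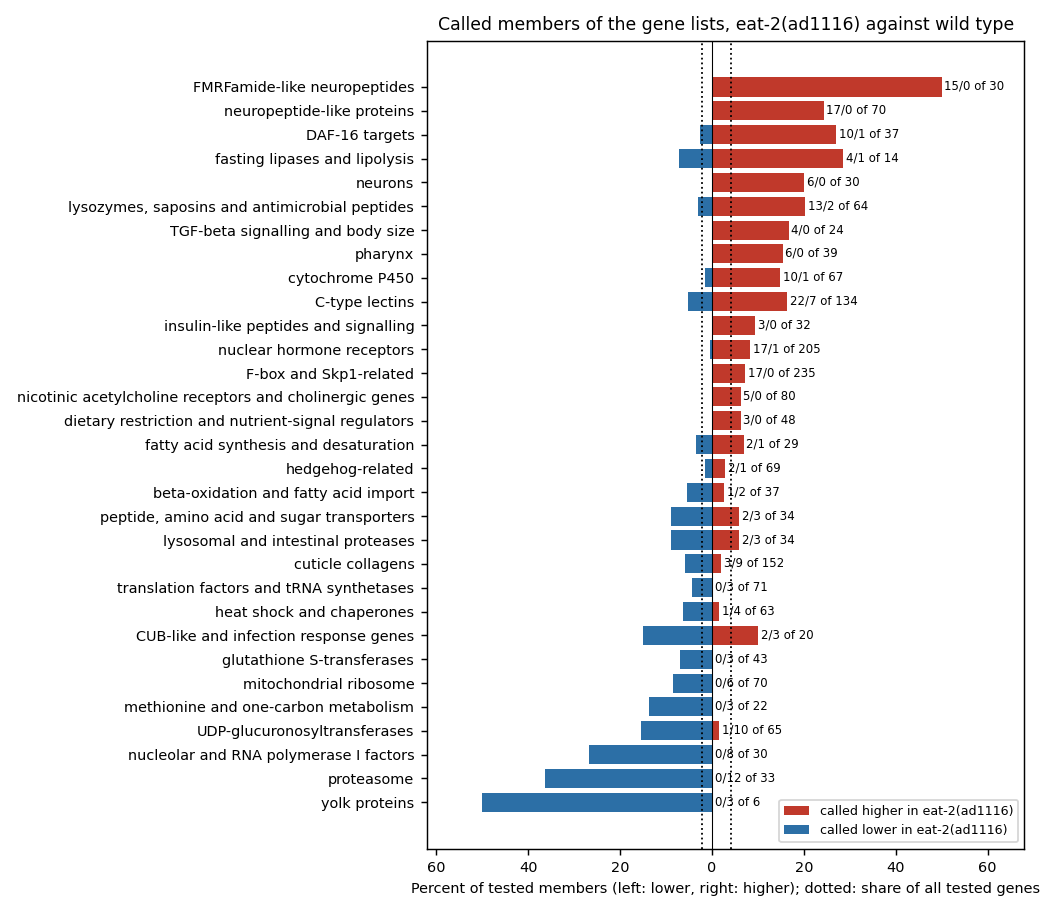
Percent of the tested members of each gene list that were called lower (blue, to the left) or higher (red, to the right) in eat-2(ad1116), with the counts beside each bar. Dotted lines mark the shares over all tested genes, 2.12% lower and 4.08% higher. Neuropeptide, lipase and DAF-16 target lists extend to the right, while yolk, proteasome and nucleolar lists extend to the left.

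Among defence genes, lectins and the list of lysozymes and antimicrobial peptides had more rises than falls, while CUB-like and infection response genes had more falls. C-type lectins, secreted sugar-binding proteins of which many respond to infection, had 22 rises and 7 falls among 134 tested members, with a median log2 fold change of 0.19. The neighbours clec-60 and clec-61 on chromosome II (10480043 to 10481874 and 10488730 to 10490537) rose 8.98-fold and 14.8-fold. For clec-61 the libraries were at 0.697, 0.918 and 0.791 CPM in wild type and at 12.9, 11.8 and 11.2 CPM in eat-2(ad1116), with little spread within either group. A further lectin, clec-82, rose 8.46-fold to 6.02 ± 1.01 CPM.

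Lectins that fell included genes at higher CPM. clec-47 (chromosome V, 15175759 to 15176324) fell 2.93-fold, from 193, 143 and 144 CPM to 54.9, 51.9 and 56.7 CPM (log2 -1.55 ± 0.11, adjusted p = 5.6e-05, edgeR). clec-209 fell 3.64-fold, from 98.2 ± 28 to 26.9 ± 3.55 CPM; it is annotated at 2 places on chromosome V (2351676 to 2352932 and 2459637 to 2460893) with identical counts, so that the reads cannot be assigned to either copy. The same holds for clec-15, whose 2 entries each held 0 counts in wild type and 51 in eat-2(ad1116) over the 3 libraries. In the fit with the stage covariate 14 lectins were higher and 13 lower. Without wild type replicates 1 and 3 in turn the counts were 15 and 4, and 14 and 5, without eat-2(ad1116) replicate 1 they were 47 and 25, and without eat-2(ad1116) replicates 2 and 3 in turn they were 13 and 4, and 11 and 4.

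Lysozymes, saposin-like proteins and antimicrobial peptides had 13 rises (20.3%) and 2 falls (3.12%) among 64 genes, against 4.08% and 2.12% of all genes. The invertebrate-type lysozyme gene ilys-3 (chromosome IV, 2464456 to 2465443), known for its part in the digestion of bacteria and in defence, rose 25.7-fold, from 0.190, 0.0633 and 0.0304 CPM to 3.09, 2.29 and 2.15 CPM. Its neighbour ilys-2 rose 12.1-fold to 4.55 ± 0.203 CPM, and lys-10 rose 12.1-fold to 2.43 ± 0.192 CPM. The saposin-like gene spp-2 rose 4.84-fold, from a mean of 20.4 to 98.7 CPM, and the thaumatin-like gene thn-2 rose 5.16-fold, from 13.4 ± 2.42 to 69.2 ± 5.76 CPM, the latter chosen after its values were seen.

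The falls were those of spp-17 (2.99-fold, 139 ± 15 to 46.4 ± 17.9 CPM) and spp-4 (2.24-fold, 35.2 ± 1.82 to 15.7 ± 3.53 CPM). It had 9 rises and 3 falls with the stage covariate. Without eat-2(ad1116) replicate 1 it had 22 rises and 4 falls, and without eat-2(ad1116) replicate 3 it had 8 rises and 2 falls.

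Genes with CUB-like domains that are known from infection responses included strong falls. irg-5 (chromosome V, 13737010 to 13738474) was at 15.6, 13.2 and 9.01 CPM in wild type and at 0.711, 3.07 and 2.02 CPM in the mutant (6.53-fold lower, log2 -2.71 ± 0.45, adjusted p = 0.0083, edgeR). dod-24 (chromosome IV, 12940106 to 12941354) fell 4.22-fold, from 76.2, 40.6 and 27.4 CPM to 10.3, 12.0 and 11.9 CPM, and dod-17 fell 2.76-fold to 16.9 ± 4.60 CPM. The groups were apart at all 3 genes, and the wild-type libraries of dod-24 varied more than those of the mutant. In the list of 20 such genes, 3 fell (15%) and 2 rose (10%, dod-3 and dod-6), with a median log2 fold change of -0.39. Over all genes 2.12% fell and 4.08% rose. The falls numbered 5 with the stage covariate, and also without wild type replicate 2 or eat-2(ad1116) replicate 1.

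Detoxification genes were examined by enzyme class. Of 67 cytochrome P450 genes, oxidising enzymes of the first phase, 10 rose (14.9%) and 1 fell (1.49%), with a median log2 fold change of 0.55. Over all genes 4.08% rose and 2.12% fell. The largest rise was that of cyp-37B1 (chromosome V, 16278116 to 16280616), from 3.52, 3.01 and 2.01 CPM to 27.5, 20.9 and 19.9 CPM (8.0-fold, adjusted p = 0.0022, edgeR). cyp-13A5 rose 5.41-fold to 9.75 ± 0.178 CPM and cyp-34A9 rose 2.48-fold to 16.8 ± 1.21 CPM, while cyp-35C1 fell 2.03-fold to 47 ± 12.4 CPM. The P450 count was sensitive to stage, with 8 rises and 9 falls under the stage covariate (median 0.07). It was also 5 rises without wild type replicate 1 or 3, 6 without eat-2(ad1116) replicate 2 or 3, and 27 without eat-2(ad1116) replicate 1.

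Conjugating enzymes form the next class. Of 65 UDP-glucuronosyltransferases, which attach sugar to drugs and metabolites, 10 fell and 1 (ugt-18) rose. The clearest were ugt-41 (3.35-fold, from 47.3, 34.5 and 54 CPM to 13.8, 13.4 and 13.3 CPM), ugt-30 (2.68-fold, from 29.3 ± 1.18 to 10.9 ± 1.29 CPM) and ugt-64 (1.89-fold, from 85.2 ± 9.36 to 45 ± 0.138 CPM). The 3 mutant libraries agreed within 1 CPM at ugt-41. The median of the whole family was nevertheless 0.10, with 36 of 65 values positive. The falls numbered 4 without wild type replicate 1, eat-2(ad1116) replicate 2 or eat-2(ad1116) replicate 3, and 6 without wild type replicate 3, with 0 rises in each. There were 12 rises and 13 falls without eat-2(ad1116) replicate 1, without wild type replicate 2 there were 5 and 8, and DESeq2 called 5 and 12. Over all genes 18.7% were higher and 18.8% lower without eat-2(ad1116) replicate 1, so that the family followed the general increase in calls there.

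Glutathione S-transferases, which conjugate glutathione, had 3 falls (6.98%) and 0 rises among 43 genes, against 2.12% and 4.08% of all genes, with a median log2 fold change of 0.07. gst-4 (chromosome IV, 10142225 to 10143099), the usual reporter of the oxidative stress factor SKN-1, was at 39.3, 41 and 39.9 CPM in wild type and at 12.9, 11.5 and 13.6 CPM in the mutant. Both groups were tight and far apart, with a fall of 3.16-fold (log2 -1.66 ± 0.14, adjusted p = 0.0001, edgeR). gst-10, which acts on a product of lipid peroxidation, fell 2.42-fold, from 137 ± 18.1 to 56.5 ± 7.25 CPM, and gst-1 fell 1.29-fold. Without eat-2(ad1116) replicate 1 the family had 7 rises and 6 falls, where 18.7% of all genes were higher and 18.8% lower. The genes gst-4, gst-10, ugt-30, ugt-41 and ugt-64 make up 5 of the 22 falls among the 80 entries.

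All 33 measured genes of the proteasome, the complex that degrades tagged proteins, had a negative log2 fold change, and 12 of them fell, with a median of -0.25. The alpha subunit gene pas-2 was at 156, 142 and 148 CPM in wild type and at 118, 116 and 121 CPM in eat-2(ad1116), a fall of 1.26-fold (adjusted p = 0.019, edgeR). The regulatory particle genes rpn-12 and rpn-5 fell 1.27-fold and 1.25-fold. No mutant library reached a wild-type library at pas-2, but the shift was small and the calls were not stable: the count of falls was 8 with the stage covariate, 23 with DESeq2, 19 without eat-2(ad1116) replicate 1, 17 without wild type replicate 2, 0 with scaling to library totals (median -0.16), and 0 when wild type replicate 1 or 3 or eat-2(ad1116) replicate 2 or 3 was left out.

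The list of nucleolar proteins and subunits of RNA polymerase I, which makes ribosomal RNA, was also shifted. All 30 members had negative log2 fold changes, with a median of -0.29, and 8 fell. They included rpoa-2, a large subunit of the polymerase (1.32-fold, from 305 ± 11.3 to 230 ± 4.5 CPM), and the ribosome assembly genes wdr-12 (1.34-fold) and pro-2 (1.28-fold). The gene nucl-1, which encodes nucleolin, fell 1.35-fold, from 981 ± 34.6 to 726 ± 85.7 CPM. Again the count depended on libraries: it was 0 without wild type replicate 1 or 3, 4 and 1 without eat-2(ad1116) replicates 2 and 3, 16 without wild type replicate 2 and 15 without eat-2(ad1116) replicate 1. Scaling to library totals left 2 falls.

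Of 70 mitochondrial ribosomal proteins 6 fell (8.57%) and 0 rose (median -0.19), with mrps-23 lower by 1.36-fold. The falls numbered 1 with library totals, and 0 without wild type replicate 1 or 3 or eat-2(ad1116) replicate 2 or 3. Of 81 cytosolic ribosomal proteins 2 fell, at a share (2.47%) close to that of all genes, and their median was -0.02 (0.05 with library totals), with 24 positive values. Without eat-2(ad1116) replicate 1 there were 6 rises and 3 falls, and there were 0 calls without wild type replicate 1 or 3 or eat-2(ad1116) replicate 2 or 3. They were rpl-25.2 and rpl-11.1, of which the latter fell 1.38-fold, from 1460 ± 162 to 1060 ± 76.6 CPM. Chaperones had 4 falls (6.35%) and 1 rise (1.59%) among 63 genes, against 2.12% and 4.08% of all genes. Among the falls was daf-41, the p23 co-chaperone of HSP90, lower by 1.33-fold. The list had 7 falls and 0 rises with the stage covariate, 0 of either with the replicate block, and 11 falls and 4 rises without eat-2(ad1116) replicate 1. It had 0 falls without wild type replicate 1 or 3 or eat-2(ad1116) replicate 2 or 3, and with library totals.

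Of 34 lysosomal and intestinal proteases 2 rose (5.88%) and 3 fell (8.82%), against 4.08% and 2.12% of all genes. The stage covariate gave 2 rises and 10 falls. There were 9 rises and 4 falls without eat-2(ad1116) replicate 1, and without wild type replicate 1 or 3 or eat-2(ad1116) replicate 2 or 3 there were 0 rises and 1 or 2 falls. The cathepsin B genes cpr-4 and cpr-1 had 2 of the 5 highest mean CPM values, not corrected for length, of the genes that rose. For cpr-4 (chromosome V, 6614674 to 6615851) the libraries were at 377, 650 and 280 CPM in wild type and at 830, 1730 and 1770 CPM in eat-2(ad1116), 3.31-fold higher (adjusted p = 0.035, edgeR). Within both groups cpr-4 ordered the libraries by stage score, apart from eat-2(ad1116) replicates 2 and 3 whose scores were alike, and with the stage covariate its log2 fold change was 0.74 in place of 1.73. The aspartyl protease gene asp-12 fell 2.28-fold, from 64.2 ± 14.3 to 28.1 ± 1.64 CPM, and cathepsin L (cpl-1) fell 1.36-fold, from 1200 ± 169 to 877 ± 29.1 CPM.

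Many neuropeptide genes rose. Of 30 genes for FMRFamide-like peptides, short peptides with which neurons modulate feeding, movement and egg laying, 15 rose and 0 fell, with a median log2 fold change of 0.89. For flp-18 (chromosome X, 3012182 to 3018555) the highest wild-type library was at 15.4 CPM and the mutant libraries were at 24.7, 35.5 and 32.7 CPM, a rise of 2.34-fold (adjusted p = 0.004, edgeR). flp-8 rose 2.53-fold to 18.4 ± 4.28 CPM and flp-3 rose 2.04-fold to 14.2 ± 0.932 CPM. The called changes ran from 1.55-fold (flp-22) to 2.53-fold (flp-8).

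The larger class of neuropeptide-like proteins gave 17 rises and 0 falls among 70 genes (median 0.75), led by pdf-1, a peptide of locomotion and arousal, at 6.56, 7.82 and 7.31 CPM in wild type and 14.7, 19 and 18 CPM in the mutant (2.38-fold, adjusted p = 0.0022, edgeR). nlp-51 rose 3.78-fold and nlp-80 2.0-fold. Groups were apart at each of flp-18 and pdf-1, and eat-2(ad1116) replicate 1 was the lowest mutant library at both.

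General neuronal genes shifted with the peptides. Of 30 neuronal markers 28 had positive log2 fold changes (median 0.61) and 6 rose (20%, against 4.08% of all genes). Among them were the presynaptic genes unc-10 (2.08-fold) and sng-1 (1.97-fold), and the dense-core vesicle genes unc-31 (1.54-fold) and ida-1 (1.92-fold). The mean log2 level of the marker list, relative to the average of the 6 libraries, was -0.31, -0.06 and -0.28 in wild type and -0.06, 0.38 and 0.34 in eat-2(ad1116). Wild type replicate 2 and eat-2(ad1116) replicate 1 were thus level with each other. In bulk RNA a change in the number of cells of a type and a change in RNA per cell cannot be told apart.

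With the stage covariate 8 FMRFamide-like genes rose and 1 fell (median 0.58), 4 neuropeptide-like genes rose and 1 fell (median 0.41), and 0 neuronal markers passed edgeR's test (median 0.22), where 24 of them had an unadjusted p under 0.05 in the fit without the covariate and DESeq2 and limma-voom called 17 and 2. FMRFamide-like rises numbered 9, 18 and 10 without wild type replicates 1, 2 and 3, and 22, 7 and 7 without eat-2(ad1116) replicates 1, 2 and 3. Neuropeptide-like rises numbered 6, 23 and 6, and 37, 3 and 3, in the same order. Neuronal rises were 0, 12 and 1, and 23, 0 and 0. How far the stage difference contributed to these rises was not tested beyond the covariate.

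EAT-2 acts at the synapse between the motor neuron and the pharyngeal muscle, and genes of acetylcholine signalling were examined for that reason. In the list of 80 nicotinic receptor and cholinergic genes 5 rose (6.25%) and 0 fell, against 4.08% and 2.12% of all genes. The share called was close to the 6.21% of all genes. The list had 71 positive log2 fold changes and a median of 0.51. The 3 acetylcholinesterase genes ace-1, ace-2 and ace-3, whose enzymes clear the transmitter, rose 1.74-fold, 1.95-fold and 2.39-fold, ace-2 to 42.4 ± 12.1 CPM. The vesicular acetylcholine transporter gene unc-17 rose 2.02-fold to 5.28 ± 1.59 CPM. The fifth call of the list was lgc-50 (adjusted p = 0.049, edgeR), whose groups overlapped. It encodes a related ligand-gated channel that need not respond to acetylcholine. With the stage covariate 0 passed edgeR's test, where 32 of the list had an unadjusted p under 0.05 in the fit without the covariate and DESeq2 and limma-voom called 17 and 3. The rises numbered 1 without wild type replicate 1 or 3, 13 without wild type replicate 2, 35 without eat-2(ad1116) replicate 1 and 0 without replicate 2 or 3 of the mutant.

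Genes of the pharynx itself gave 6 rises (15.4%, against 4.08% of all genes) and 0 falls among 39 (median 0.56). They were pqn-75, phat-6 and phat-7, expressed in the pharyngeal glands, which rose 3.65-fold, 2.78-fold and 2.26-fold, with phat-5, phat-8 and pha-4. phat-7 was at 51.6, 70.4 and 58.5 CPM in wild type and at 90.6, 157 and 160 CPM in the mutant, so that the groups were apart. There were 4 rises (median 0.45) with the stage covariate. There were 14 without wild type replicate 2, 19 without eat-2(ad1116) replicate 1, 3 without wild type replicate 1 or eat-2(ad1116) replicate 2, and 4 without the other libraries in turn.

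**Figure D3:**
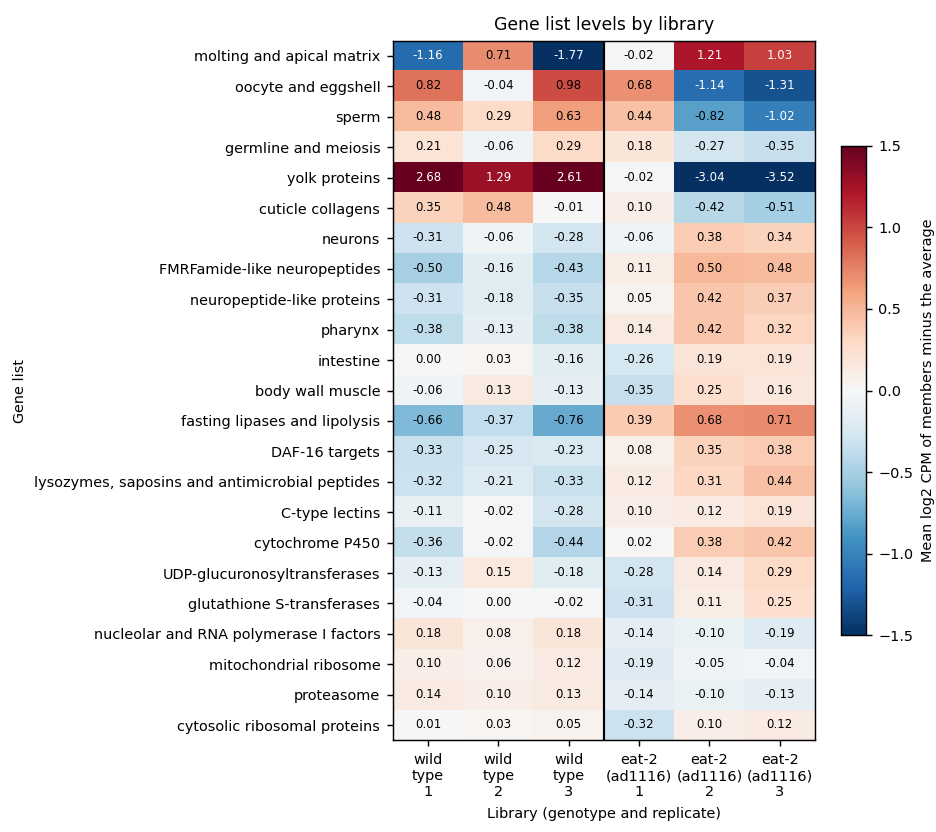
Mean log2 CPM of each gene list in each of the 6 libraries, minus the average of the 6, as numbers and colour (blue low, red high, colour limited at 1.5). Fasting lipases separate the groups, at -0.66, -0.37 and -0.76 against 0.39, 0.68 and 0.71. The lists of the molt and of oocytes and eggshell place wild type replicate 2 and eat-2(ad1116) replicate 1 away from the other libraries of their genotypes.

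Genes of signalling and gene control added smaller groups of rises. Insulin signalling had 3 rises (9.38%) and 0 falls among 32 genes, against 4.08% and 2.12% of all genes. The rises were those of the insulin-like ligand genes ins-7 (2.12-fold) and ins-11 (4.90-fold) and the receptor gene daf-2 (1.58-fold, 82.6 ± 6.43 to 131 ± 31.5 CPM). TGF-beta signalling and body size had 4 rises (16.7%) and 0 falls among 24 genes, including the ligand gene daf-7 (2.1-fold, to 2.43 ± 0.660 CPM) and the receptor-binding protein gene sma-10 (1.77-fold). With the stage covariate these lists gave 1 and 0 rises, and both gave 0 without wild type replicate 1 or 3 or eat-2(ad1116) replicate 2 or 3. Without eat-2(ad1116) replicate 1 they gave 12 and 17 rises.

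Of 205 nuclear hormone receptor genes 17 rose (8.29%) and 1 fell (0.488%), against 4.08% and 2.12% of all genes (median 0.41). Higher were nhr-19 (3.32-fold, to 11.9 ± 3.69 CPM) and nhr-99 (2.24-fold), and nhr-76 was lower by 2.23-fold. Of 235 F-box and related genes, many of which belong to large families of ubiquitin ligase adaptors, 17 rose (7.23%) and 0 fell (median 0.13). Among them fbxa-158 rose 8.40-fold and math-45 rose 10.8-fold, from 0.613 ± 0.230 to 6.65 ± 1.4 CPM. The nuclear receptor rises numbered 4 with the stage covariate, 5, 29 and 5 without wild type replicates 1, 2 and 3, and 98, 3 and 3 without eat-2(ad1116) replicates 1, 2 and 3. The F-box rises numbered 9 with the covariate, 8, 28 and 8, and 52, 7 and 7, in the same order. Over all genes 18.7% were higher without eat-2(ad1116) replicate 1.

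Yolk protein genes had the lowest median of the lists (log2 -3.82 over 6 genes), and 3 of the 6 fell. The yolk protein gene vit-3 (chromosome X, 3567355 to 3572549) was at 742, 277 and 726 CPM in wild type and at 57.1, 5.70 and 3.05 CPM in eat-2(ad1116), 26.4-fold lower (log2 -4.72 ± 1.1, adjusted p = 0.034, edgeR). vit-4 and vit-1 fell 19.2-fold and 14.7-fold, and vit-3 and vit-4 share reads. The remaining genes had log2 fold changes of -2.47 (vit-2), -3.77 (vit-5) and -2.56 (vit-6), with adjusted p-values of 0.13, 0.058 and 0.11. Summed over the family, yolk transcripts came to 5850, 2280 and 5680 CPM in wild type and to 1320 CPM in replicate 1 and at most 150 CPM in replicates 2 and 3 of the mutant. Every wild-type library thus exceeded every mutant library, while eat-2(ad1116) replicate 1 lay nearer to wild type replicate 2 than to its own group.

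Under the stage covariate 4 yolk genes fell, and the median was -2.56. Without wild type replicate 1 or 3 the count was 1, without eat-2(ad1116) replicate 2 or 3 it was 0, and without eat-2(ad1116) replicate 1 it was 6. In the dis-3(L75Q) background the median was -2.23 and 0 yolk genes passed edgeR's test. The mean stage scores were close there, but dis-3(L75Q) replicate 3 lay apart in stage. Summed yolk came to 964, 893 and 3550 CPM in dis-3(L75Q) and to 502, 448 and 818 CPM in the double mutant, so that this library weighed heavily on the difference.

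The stage lists themselves gave no calls. Of 40 molting genes none passed edgeR's test (median 0.82, 8 with an unadjusted p under 0.05, 1 called by DESeq2 and 0 by limma-voom), and 23 were higher without wild type replicate 2. Of 40 oocyte and eggshell genes none passed (median -0.91, 1 with an unadjusted p under 0.05, 0 called by DESeq2 or limma-voom), and 34 were lower without eat-2(ad1116) replicate 1. Of 81 sperm genes none passed (median -0.85, 20 with an unadjusted p under 0.05, 4 called by DESeq2 and 1 by limma-voom), and 58 were lower without eat-2(ad1116) replicate 1.

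Cuticle collagens, which are made anew at each molt, had 9 falls (5.92%) and 3 rises (1.97%) among 152 genes (median -0.53). Over all genes 2.12% fell and 4.08% rose. col-142 (544, 215 and 733 CPM in wild type, 135, 99.4 and 110 CPM in the mutant) fell 4.33-fold, and col-126 and col-145 fell 10.6-fold and 4.06-fold. In contrast col-41 rose 33.3-fold by its mean, but its mutant libraries were at 9.16, 168 and 170 CPM against 3.14, 4.78 and 2.5 CPM, so that the low library was eat-2(ad1116) replicate 1. The collagen gene col-68, 2.91-fold lower (11.3 ± 1.73 to 3.87 ± 0.127 CPM), was the list's member among the 80 entries. The list had 8 falls and 0 rises with the stage covariate, and without eat-2(ad1116) replicate 1 it had 54 falls and 14 rises. Without wild type replicate 2 it had 16 falls and 24 rises, and without each of the other libraries 3 or 4 falls and at most 1 rise.

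Several of the largest changes belonged to genes without a gene-class name. C50F7.5 (chromosome IV, 7726719 to 7727639) rose 35.1-fold, from 0.380, 0.791 and 0.426 CPM to 9.49, 24.3 and 22.6 CPM, and F17B5.1 rose 14.7-fold to 25.1 ± 7.49 CPM. Y8A9A.2 rose 8.62-fold, from 9.00 ± 1.06 to 77.6 ± 37.9 CPM. On the other side T22B7.7 (chromosome X, 5651865 to 5654074) fell 13.2-fold, from 102, 54.5 and 132 CPM to 6.59, 7.99 and 7.31 CPM, and C30G12.2 fell 4.89-fold, from 176 ± 22.4 to 35.9 ± 5.84 CPM. All 5 belong to the 80 entries, while C09B8.4, which fell 5.21-fold, was called in 10 of the 15 alternatives.

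Other named genes with large changes were scl-2, a secreted protein of the SCP family that rose 7.0-fold (13, 14.8 and 13.8 CPM to 74.5, 106 and 110 CPM), and srw-85, a predicted chemoreceptor that rose 8.59-fold. The ammonium transporter gene amt-1 fell 5.17-fold, from 13.1 ± 5.64 to 2.52 ± 0.347 CPM, and dhs-26, a short-chain dehydrogenase gene chosen after its values were seen, fell 11.3-fold, from 6.64 ± 3.12 to 0.583 ± 0.0657 CPM. Called genes were spread over the chromosomes unevenly, with 6.31% of chromosome V genes higher and 2.77% lower, against 2.24% and 1.54% on chromosome I.

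The same allele was then read in the dis-3(L75Q) background, where 202 genes were called (1.24%), 89 higher (0.547%) and 113 lower (0.695%). Of the 664 rises against wild type 79 were also called higher there, which is 11.9% of them and 88.8% of the 89. Of the 345 falls 69 were also called lower, 20% of them and 61.1% of the 113, and 1 gene, hmt-1, was called in opposite directions. A test of the difference between the backgrounds called 10 genes (0.0615%). By sign alone 624 of the 664 rises were positive and 335 of the 345 falls were negative in the second background.

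Of the 58 rises among the 80 entries 57 were positive and 38 were called higher in the dis-3(L75Q) background, and of the 22 falls all were negative and 17 were called lower. Nearly all of the 58 rises had a smaller log2 fold change with dis-3(L75Q) than without it. The 80 entries were chosen by the comparison with wild type, and the cause of the smaller values was not tested. lys-7 rose 4.18-fold without dis-3(L75Q), and with it the log2 fold change was 2.00 (adjusted p = 2.4e-05, edgeR) against 2.06. gst-4 (log2 -1.85 with dis-3(L75Q) and -1.66 without), agl-1 (-1.60 and -1.68), clec-47 (-1.66 and -1.55) and dod-3 (3.77 and 4.03) had close values in both backgrounds.

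The lipases rose in both settings, with log2 values with and without dis-3(L75Q) of 2.2 and 4.74 for lipl-1, 2.21 and 2.92 for lipl-2, and 2.7 and 3.73 for lipl-3. By contrast mtl-1 (0.73, adjusted p = 0.71) and abf-4 (-0.01, adjusted p = 1) did not pass the test with dis-3(L75Q), and the difference between the backgrounds did not pass either. Of the CUB-like and infection response list, irg-5, dod-24 and dod-17 fell in both, while dod-3 rose in both. Log2 values with and without dis-3(L75Q) were -4.43 and -2.71 for irg-5, -3.59 and -2.08 for dod-24, and -2.41 and -1.46 for dod-17.

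The lists were also counted in the second background, where 0.547% of all genes were higher and 0.695% lower. FMRFamide-like and neuropeptide-like genes gave 0 calls there in edgeR's test, with medians of 0.32 and 0.18. The proteasome and nucleolar lists also gave 0, with medians of -0.14 and -0.18. For fasting lipases 3 of 14 rose, for DAF-16 targets 6 of 37 rose and 3 fell, for UDP-glucuronosyltransferases 5 of 65 fell, and for glutathione S-transferases 4 of 43 fell. The pud genes, a cluster on chromosome V of which none passed the test against wild type (median -0.75, 3 with an unadjusted p under 0.05, 2 called lower by DESeq2 and 0 by limma-voom), had 5 falls among 6 entries (median -1.89). Whether any list differed between the backgrounds was not tested.

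**Figure D4:**
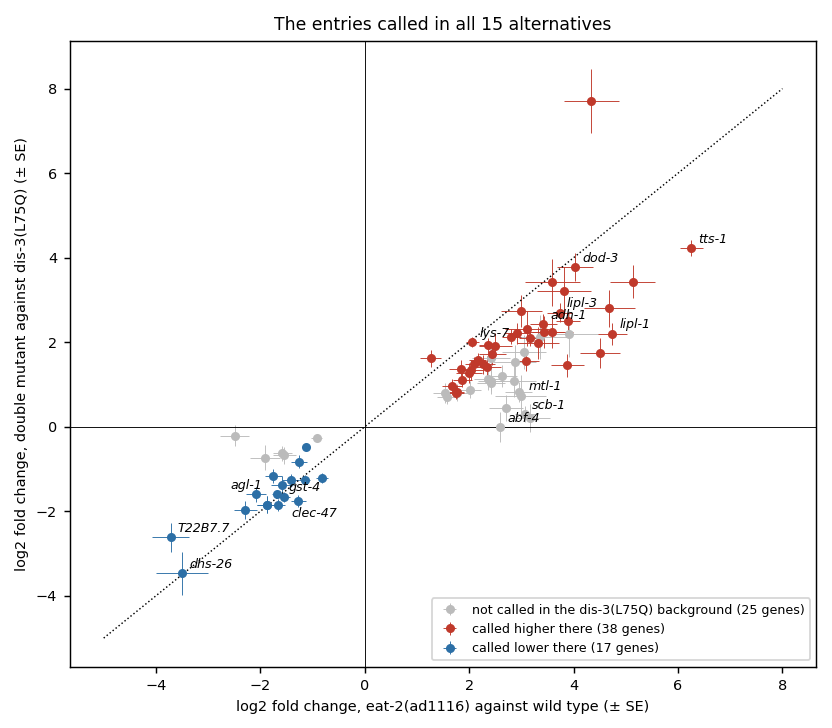
Log2 fold change ± SE of the 80 entries called in all 15 alternatives, in eat-2(ad1116) against wild type (horizontal) and in the double mutant against dis-3(L75Q) (vertical), with the dotted line marking equal values. Red and blue points were also called higher (38) or lower (17) with dis-3(L75Q), grey points (25) were not. All but 1 of the points lie in the quadrants of equal sign. Nearly all of the rises lie below the line, tts-1, lipl-1 and scb-1 among them, while the falls lie on either side. The entries were chosen by the horizontal comparison.

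**Figure D5:**
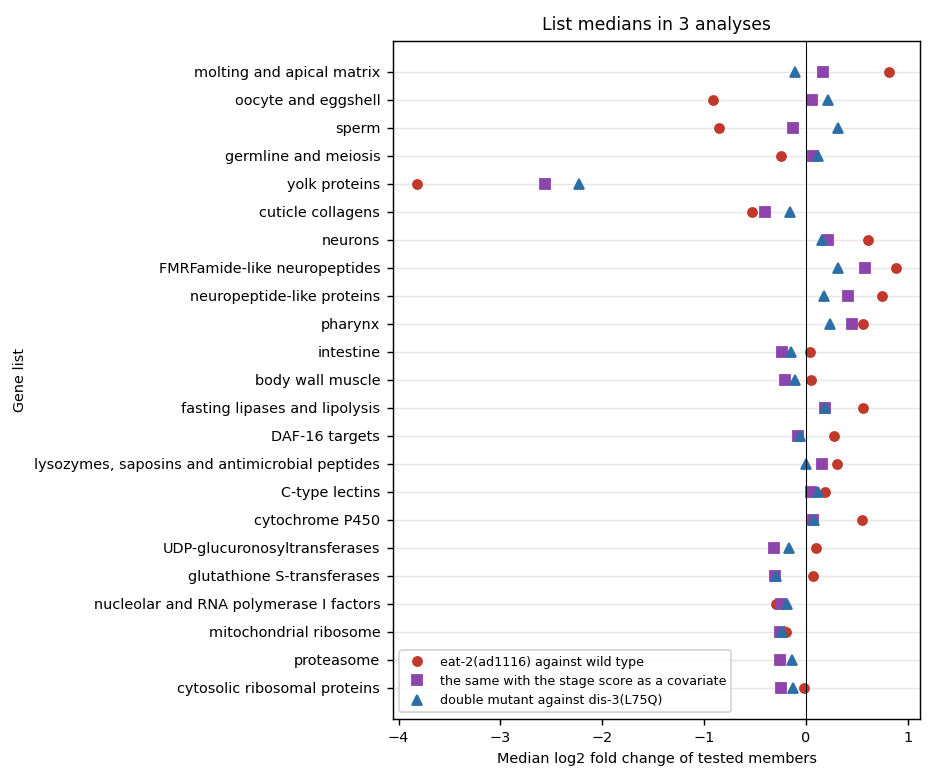
Median log2 fold change of the tested members of each list in eat-2(ad1116) against wild type (red circles), in the same comparison with the stage score as a covariate (purple squares) and in the double mutant against dis-3(L75Q) (blue triangles). The molting, oocyte and sperm medians of 0.82, -0.91 and -0.85 lie far from 0 in the first, and the yolk median is below -2 in all 3.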

How the data were processed

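Whole-worm RNA was sequenced in 12 libraries of 4 genotypes with 3 replicates each. The authors deposited expected counts per gene, estimated with RSEM 1.3.1 after alignment with STAR 2.7.0e per the submitters' processing notes; no source used here gives the annotation release or the strand setting. The expected counts were rounded to whole numbers. Genes were kept by edgeR's filterByExpr, scaled by TMM and fitted with edgeR 4.0.16 (quasi-likelihood, robust, R 4.3.3) over all 12 libraries by genotype, since the groups then share 1 estimate of the spread; p-values were adjusted by Benjamini-Hochberg over the 16259 genes tested, and the threshold was 0.05. Of 46934 entries 46924 matched the reference annotation (WBcel235). The steps were tested on simulated data. DESeq2 1.42.0, limma 3.58.1 (voom), other scalings and filters, a replicate block, a fit with the stage score and fits without single libraries were alternatives. P-values measure the spread between harvests.

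Genes were named by rule: the targeted gene, the largest changes with and without a gene-class name at a mean of at least 5 CPM without overlap, the leading called members of each list, the highest means, the interaction calls and the whole of the yolk, fmo, pud and lipl lists. Groups that lie apart at a gene of the largest changes are therefore no separate finding. Members and lists were chosen with earlier results of these data known. Named beyond the rule, after their values were seen, were fil-1, agl-1, nnt-1, asah-1, clec-15, ilys-2, lys-10, abf-4, thn-2, flp-22, ace-1, lgc-50, unc-31, sng-1, phat-5, phat-8 and dhs-26.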

Additional observations from a re-analysis of the deposited data

Results flagged for a closer look

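For 5 genes that differed between eat-2(ad1116) and wild type, the log2 fold change differed between the wild-type and the dis-3(L75Q) background in edgeR's interaction test. The test called 10 of 16259 genes (0.0615%), while 1180 had an unadjusted p under 0.05. With 1 strain per genotype, a dependence between the 2 alleles and a variant of a single strain cannot be told apart. For tts-1 the levels were 2.54, 3.13 and 1.98 CPM in wild type, 206, 160 and 215 CPM in eat-2(ad1116), 3.37, 3.89 and 3.39 CPM in dis-3(L75Q) and 53.7, 74.3 and 72.6 CPM in the double mutant, and the log2 effect was smaller by 2.01 ± 0.26 (interaction -2.01, adjusted p = 0.034, edgeR). For lipl-1 the double mutant was at 5.46, 6.85 and 7.24 CPM and dis-3(L75Q) at 1.49, 1.64 and 1.11 CPM (interaction -2.54 ± 0.36, adjusted p = 0.039, edgeR).

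The gene scb-1, named for its part in the response to bleomycin, was at 3.17, 2.15 and 3.38 CPM in wild type and at 17.3 to 26.9 CPM in the other 9 libraries, so that it rose without dis-3(L75Q) and had a log2 fold change of 0.30 with it (interaction -2.77 ± 0.26, adjusted p = 0.0026, edgeR). The heavy metal transporter gene hmt-1 was at 89.8, 89 and 83.9 CPM in wild type, 64.2, 69.4 and 69.5 CPM in eat-2(ad1116), 9.96, 8.57 and 9.43 CPM in dis-3(L75Q) and 74.7, 71.0 and 68.3 CPM in the double mutant (interaction 3.31 ± 0.12, adjusted p = 4.1e-07, edgeR). Y48G9A.11 was at 1.81, 1.61 and 1.83 CPM in wild type, 0.219, 0.0627 and 0.280 CPM in eat-2(ad1116) and 1.47 to 2.33 CPM in the other 6 libraries (interaction 3.49 ± 0.48, adjusted p = 0.037, edgeR).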

How the results depend on the processing

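The calls against wild type numbered 1009 (664 higher, 345 lower) and 1714 (1482, 232) with library totals, 2284 (1552, 732) with DESeq2, 839 (624, 215) with no filter beyond 1 count, 691 (516, 175) with a filter of 5 CPM, 84 (61, 23) with the 6 libraries alone, 849 (312, 537) with the stage covariate, 238 (157, 81) at an adjusted p under 0.01 and 570 (448, 122) at 2-fold. The replicate block gave 496 (334, 162). Deviations from the group mean correlated by 0.30, 0.42 and -0.27 between same-numbered libraries. These values cannot decide whether the replicate numbers pair the samples, because libraries of the same genotype also differ in stage. Leaving out each replicate in turn gave 298 to 6161 calls, 186 to 3073 higher and 92 to 3088 lower, and leaving out wild type replicate 2 and eat-2(ad1116) replicate 1 together gave 8013 (4085, 3928). In the dis-3(L75Q) background 202 calls became 608 with DESeq2, 115 with the replicate block and 776 with the stage covariate. The 10 interaction calls became 52 with DESeq2, 6 with limma-voom and 4 with the replicate block. Signs reversed for fmo-3 (0.09 without wild type replicate 2 and eat-2(ad1116) replicate 1 together), fmo-4 (0.03 without wild type replicate 2, with -0.46 without replicate 3), fmo-5 (-0.43 with the stage covariate), lipl-7 (-0.14 with the stage covariate) and 1 of the 2 pud-2.2 entries (0.38 with the stage covariate and, over omitted libraries, -0.47 without wild type replicate 2 to 0.09 without replicate 3). The cause was not tested. Genes under 1 CPM rest on few counts.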
